A study of Mus musculus with 11 samples.

Results

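The proteins of the cytosolic ribosome were followed at the RNA level in the mouse cells of A375 tumors, across PLX4720, bevacizumab, their combination (COMBO) and vehicle. Members were the probes whose symbol starts with Rpl or Rps and a number, or is Rplp0, Rplp1, Rplp2 or Rpsa, without the Rps6k kinases and without pseudogene names. Of 96 such probes for 65 genes, 73 probes for 56 genes were detected (p under 0.05) on 1 array or more, among 16217 probes for 10933 genes tested in all. The detection p compares a probe with the negative control beads of the same array.

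The A375 line comes from a human melanoma and carries mutant BRAF. Its cells were grown under the skin of female CD1 athymic mice, implanted at 6 weeks of age. Tumors of 150 to 200 mm3 were treated for 12 days per the labels, and the study's methods describe larger tumors and a slightly longer course. PLX4720 mice received this BRAF inhibitor by gavage, 60 mg/kg each day (n = 3). Bevacizumab mice received the anti-VEGF antibody by intraperitoneal injection, 10 mg/kg on 3 days of each week (n = 3). COMBO mice received both drugs (n = 2), and vehicle mice received methylcellulose (n = 3). RNA of whole tumors was read on MouseWG-6 v2.0 bead arrays, so that mouse probes read the host cells of a human tumor. Binding of human RNA to mouse probes for these conserved genes was not measured. Athymic mice lack mature T cells, and the host cells in such a tumor are mainly vessel, connective tissue and myeloid cells.

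The ribosome has a small subunit, whose proteins are named Rps and which reads the mRNA, and a large subunit, whose proteins are named Rpl and which joins the amino acids. Rplp0, Rplp1 and Rplp2 form the stalk of the large subunit, where elongation factors dock. The subunits are built in fixed proportion, and most of the mRNAs begin with a tract of pyrimidines, the TOP motif, through which mTOR signaling controls their translation.

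Promoter windows of 60 bases, centered on the RefSeq start (GRCm38.p6), are shown for members that were higher with PLX4720 and for Rpl3l, to set a tract near the start beside a promoter without one. They were picked because they hold a run: other called genes, such as Rpl41, Rpl37, Rps15, Rps21 and Rps4x, have none in this window, and the second listed start of Rps24 has none. Capitals mark the run of at least 8 pyrimidines that reaches the bases from 5 before to 10 after the start, and the first transcribed base is the one after base 30.
Rps24, chr14:24490648-24490707, plus strand: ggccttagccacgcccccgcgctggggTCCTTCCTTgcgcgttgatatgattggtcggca
Rps26, chr10:128626477-128626536, minus strand: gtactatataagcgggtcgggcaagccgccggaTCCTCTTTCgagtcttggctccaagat
Rplp2, chr7:141447621-141447680, plus strand: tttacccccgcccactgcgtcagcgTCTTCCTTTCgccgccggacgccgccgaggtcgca
Rpl38, chr11:114668550-114668609, plus strand: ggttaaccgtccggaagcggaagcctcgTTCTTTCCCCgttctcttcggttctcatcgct
Rpl28, chr7:4792935-4792994, plus strand: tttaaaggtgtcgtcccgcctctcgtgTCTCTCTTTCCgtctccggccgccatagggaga
Rpl3l, chr17:24727796-24727855, plus strand: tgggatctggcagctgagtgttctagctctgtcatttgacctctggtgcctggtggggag

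Of the 56 genes, 47 matched the RefSeq promoter table, with 57 promoters of 300 bases. A run of this kind was present in 19 of the 57 (33.3%), against 11.3% of all 32851 promoters. The sequence CCGGAAG, a core bound by ETS factors, was found on either strand in 21 of the 57 (36.8%), against 8.86% of all promoters. CACGTG, the E-box read by Myc and related factors, was in 7 of the 57 (12.3%), against 7.15%. AAGATGGC, a core bound by YY1, was in 3 (5.26%), against 2.75%, and TATAAA was in 6 (10.5%), against 13.6%. All were searched on both strands except the run, and CCGGAAG ends in the AAG with which AAGATGGC begins, so that the pair can overlap. Among genes called with PLX4720 the run was in 9 of 18 promoters (50%), and among the other tested members in 10 of 39 (25.6%), given as a description.

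Host markers checked the tissue. All arrays had signal for 9 or 10 of 10 endothelial genes, 7 or 8 of 8 macrophage genes and 6 to 8 of 8 fibroblast genes. Skeletal muscle genes were uneven: all 16 were detected in PLX4720 replicate 1 and COMBO replicate 1, 15 in PLX4720 replicate 3 and bevacizumab replicate 2, and 12 in COMBO replicate 2, against 0, 8 and 1 in the vehicle replicates. PLX4720 replicate 2 and bevacizumab replicates 1 and 3 had only 2, 2 and 1. The mean of the muscle list lay 7.35 log2 units above the vehicle mean in PLX4720 replicate 1, 4.60 in COMBO replicate 1 and 3.95 in bevacizumab replicate 2. The endothelial list lay lower than the vehicle mean by log2 values of -1.28, -1.30 and -0.67 in the PLX4720 arrays, -0.47, -0.58 and -0.75 in the bevacizumab arrays, and -1.51 and -1.92 in the COMBO arrays. Macrophage markers lay at 0.28, 0.67 and 1.01 in the PLX4720 arrays and 0.78 and 1.07 in the COMBO arrays, against -0.25 to 0.32 in the vehicle arrays. Fibroblast markers reached 1.68 in PLX4720 replicate 2, the array with the highest ribosomal median. A list of 3 adipocyte genes lay at 2.39, 0.08 and 1.81 in the PLX4720 arrays and 2.26, 0.99 and -0.40 in the bevacizumab arrays. It lay at 2.11 and 1.09 in the COMBO arrays, against -0.49 to 0.53 in the vehicle arrays. The part of these shifts in the ribosomal results was not tested, apart from the fits given below that adjust for muscle signal. In bulk tissue, fewer cells of a type and less RNA per cell cannot be told apart.

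Ribosomal probes spanned the range of the array, from 19 with a mean log2 signal under 8 to 10 above 14, and 63 to 70 of the 73 were detected on any one array. Their median log2 signal was 11.79, 12.20 and 12.08 in the PLX4720 tumors, 11.86, 11.77 and 11.70 in the bevacizumab tumors, 11.76 and 11.79 in the COMBO tumors, and 11.54, 11.43 and 11.48 in the vehicle tumors. On these quantile-normalized values, all 8 treated arrays lay above all 3 vehicle arrays. Relative to each probe's vehicle mean, the median ribosomal probe stood at 0.27, 0.61 and 0.39 in PLX4720, 0.33, 0.26 and 0.18 in bevacizumab, 0.17 and 0.34 in COMBO, and 0.13, -0.10 and -0.07 in vehicle. The median of all probes lay between -0.02 and 0.12 on every array. Before quantile normalization, with background correction alone, the separation was less complete. The ribosomal medians were then 12.62, 12.83 and 12.43 in PLX4720 and 11.69, 11.32 and 11.24 in bevacizumab. COMBO arrays read 11.48 and 11.66, and vehicle arrays 11.5, 11.44 and 11.02. On that scale only the PLX4720 group lay entirely above vehicle.

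**Figure D1:**
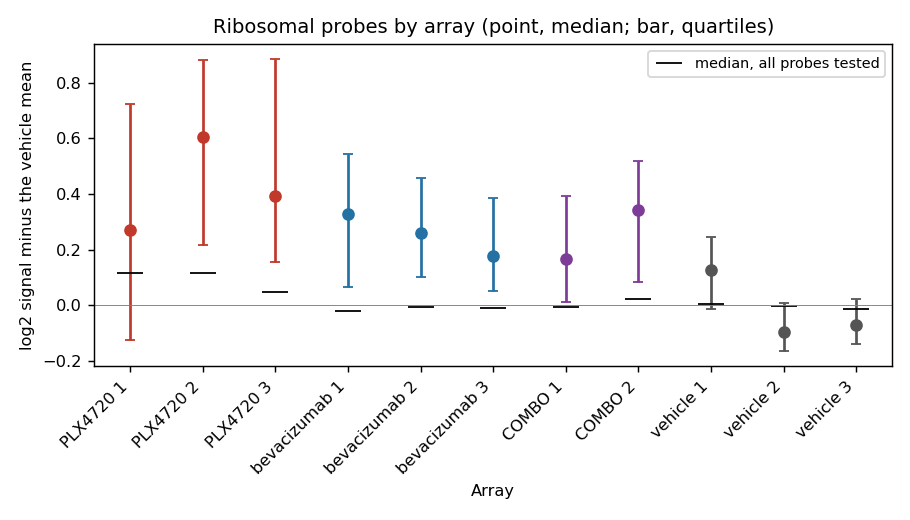
Ribosomal probes by array: the vertical axis gives log2 signal minus the vehicle mean of each probe, points give the median of 73 probes, bars the quartiles, and black dashes the median of all probes tested. After quantile normalization, the 8 treated arrays have ribosomal medians from 0.17 to 0.61, and the vehicle arrays from -0.10 to 0.13.

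PLX4720 against vehicle was the comparison in which ribosomal probes passed the test. The PLX4720 arrays also stood apart in the number of probes detected, 14543, 15130 and 13049 of those on the array, against 10115 to 11322 on the vehicle arrays and 11178 to 12315 on the others. Their lowest detected log2 signal was 5.43, 5.38 and 5.58, against 5.82 to 6.03 on the vehicle arrays. The part of this in the ribosomal calls was not tested. With limma over all 16217 probes and Benjamini-Hochberg adjustment, 16 of the 73 probes (21.9%), for 16 genes, were higher at an adjusted p under 0.05, against 4.75% of all probes. None was lower, against 6.74% of all probes. The probe called for Rpl22l1 was detected on 0 vehicle arrays, so it was tested only through treated groups. At an unadjusted p under 0.05, 31 ribosomal probes were higher (16.4% of all probes) and 1 was lower (13.7% of all probes). The median log2 fold change was 0.47 for the ribosomal probes and 0.14 for all probes. PLX4720 means exceeded vehicle means for 61 of the 73 probes, and between 58 and 61 did so under the 6 scalings tried. The PLX4720 arrays lay entirely above the vehicle arrays for 34 probes, against 18.9% of all probes, and entirely below for 4, against 14.7%. Among the 34 were Rpl22l1, Rpl3l and a dim probe of Rps24 (ILMN_2625060). Each was detected on 0 vehicle arrays and was tested only through treated groups. Rpl22l1 and this Rps24 probe are also among the 31. The 61 held all of these, and also Rpl21, Rps19bp1 and Rps24 ILMN_1214875, likewise undetected on vehicle arrays. At the threshold of the study's methods, log2 fold change 1 or more and unadjusted p below 0.01, 6 ribosomal probes were higher (3.66% of all probes) and 0 lower (5.8%).

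The count of 16 moved with single arrays, and so did the share of all probes called higher. It was 9 (12.3%) without PLX4720 replicate 2, against 5.24% of all probes, and 10 (13.7%) without bevacizumab replicate 2, against 3.57%. Without either COMBO replicate it was 10, against 3% of all probes. Without vehicle replicate 1 it was 9 (12.3%, against 2.9%), without vehicle replicate 2 it was 3 (4.11%, against 0.661%), and without vehicle replicate 3 it was 4 (5.48%, against 1.06%). With muscle signal as a covariate it was 6 (8.22%, against 1.18%), and without the 3 treated arrays of most muscle signal it was 2 (2.82%, against 0.612%). In those 2 fits the median log2 fold change of the ribosomal probes was 0.59 and 0.54, against 0.13 in both over all probes.

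The scaling also changed the shares. With each array scaled to its median, 8 ribosomal probes were higher (11%) and 2 lower, against 9.34% of all probes higher and 16% lower. With housekeeping scaling 5 were higher (6.85%), against 5.72% of all probes. Under these scalings the share of ribosomal probes called higher was thus near that of all probes, while their median log2 fold changes were 0.50 in both, against -0.09 over all probes. The 10 housekeeping genes were Actb, B2m, Gapdh, Gusb, Hprt, Pgk1, Ppia, Tbp, Tfrc and Ywhaz. In the main fit, 2 of their 25 probes were called higher with PLX4720 (B2m, 1.03 and 0.93). Another 2 were called lower (Pgk1, -1.11, and a Gusb probe, -1.455), so this reference was not unchanged.

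**Figure D2:**
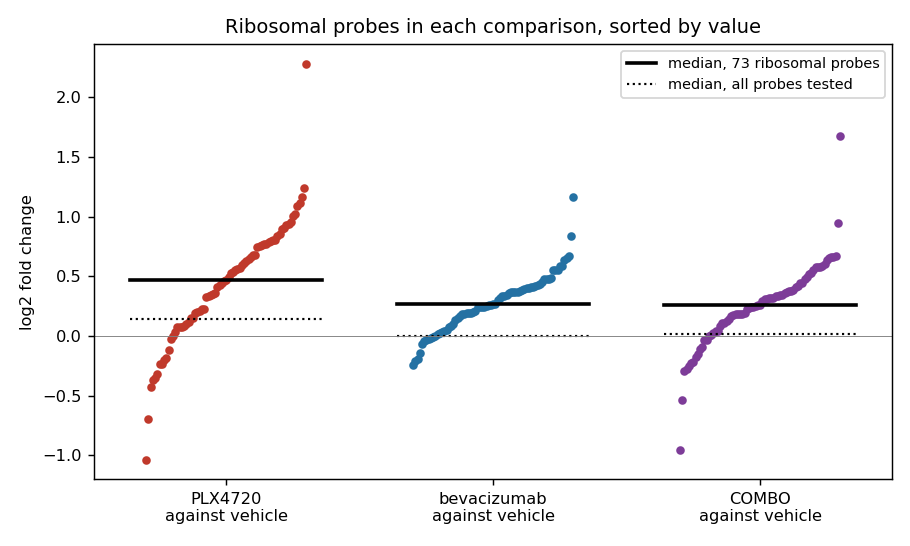
Each point is one of the 73 ribosomal probes, sorted by log2 fold change against vehicle (vertical axis) in the 3 comparisons; solid lines give their median and dotted lines the median of all probes tested. The solid lines lie at 0.47 for PLX4720, 0.26 for bevacizumab and 0.26 for COMBO, and the dotted lines at 0.14, 0.00 and 0.02.

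Rps24, a small subunit protein whose gene is mutated in human Diamond-Blackfan anemia, changed most among those called. Its brightest probe (ILMN_3126986) read 14.08, 14.20 and 14.09 log2 units in PLX4720 tumors, 13.26, 13.37 and 13.38 in bevacizumab tumors, 13.31 and 13.36 in COMBO tumors, and 13.07, 12.79 and 12.79 in vehicle tumors. The PLX4720 arrays lay above every other array. The log2 fold change against vehicle was 1.24 ± 0.19 (SE), a 2.36-fold rise, with an adjusted p of 0.00395 in limma. It was called under every alternative in which it was tested.

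Rps26, another small subunit protein mutated in the same anemia, read 12.59, 12.26 and 12.24 in PLX4720 tumors, 11.76, 11.75 and 11.76 in bevacizumab tumors, 11.44 and 11.70 in COMBO tumors, and 11.26, 11.18 and 11.38 in vehicle tumors. The groups separated in the order PLX4720, bevacizumab and vehicle, with COMBO overlapping none of the 3 and lying between bevacizumab and vehicle. The PLX4720 log2 fold change was 1.09 ± 0.20 (adjusted p = 0.00825, limma). Rps19, the gene most often mutated in that anemia, was not called. Rps19 on its bright probe (ILMN_2862280) read 14.39, 14.66 and 14.63 in PLX4720 tumors and 14.99, 14.95 and 14.85 in vehicle tumors, a log2 fold change of -0.37 ± 0.20 (adjusted p = 0.233, limma). Its dim probe gave -0.70 ± 0.32 (adjusted p = 0.168, limma). Rpl5, Rpl11 and Rpl35a, also on the anemia list, were not analysed here.

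Among the other small subunit proteins called were Rps29, Rps4x, Rps21 and Rps15. Rps29, a small zinc-binding protein, read 15.51, 15.25 and 15.04 in PLX4720 tumors, 14.35, 14.48 and 14.20 in bevacizumab tumors, 14.51 and 14.99 in COMBO tumors, and 14.20, 14.17 and 14.08 in vehicle tumors. Its log2 fold change with PLX4720 was 1.12 ± 0.22 (adjusted p = 0.0109, limma). Rps4x, encoded on the X chromosome, read 12.92, 12.74 and 12.74 with PLX4720 and 12.13, 11.70 and 11.85 with vehicle, a log2 fold change of 0.90 ± 0.22. For Rps21 and Rps15 the log2 fold changes were 0.84 and 0.76, and they were called in 1 and 2 of the 11 fits that left out 1 array.

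Rpl41, the shortest protein of the large subunit, was the large subunit member with the largest called rise. It read 15.25, 15.69 and 15.80 in PLX4720 tumors, 14.95, 14.82 and 14.71 in bevacizumab tumors, 14.53 and 14.80 in COMBO tumors, and 14.53, 14.37 and 14.33 in vehicle tumors. The log2 fold change with PLX4720 was 1.17 ± 0.22 (adjusted p = 0.00859, limma), and it was 0.25 ± 0.25 with COMBO (adjusted p = 0.727). The other large subunit proteins called were Rpl39 (0.96), Rpl34 (0.93), Rpl38 (0.90), Rpl37 (0.79), Rpl32 (0.77) and Rpl28 (0.74), given as log2 fold changes. Rpl39 was called in 2 of the 11 fits that left out 1 array. Rpl38, whose loss in Tail-short mice alters the skeleton, read 13.99, 14.03 and 14.44 with PLX4720 and 13.40, 13.14 and 13.23 with vehicle on its bright probe. Rpl28 lay nearest the threshold (adjusted p = 0.0483, limma) and was called in none of the 11 fits that left out 1 array.

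The stalk proteins were read unevenly. Rplp2 rose, with 13.02, 12.77 and 13.14 in PLX4720 tumors, 12.54, 12.15 and 12.14 in bevacizumab tumors, 12.27 and 12.28 in COMBO tumors, and 12.19, 12.11 and 11.81 in vehicle tumors. Its log2 fold change with PLX4720 was 0.94 ± 0.22 (adjusted p = 0.0213, limma). Rplp0 was dim, with 6.39, 6.63 and 5.96 in PLX4720 tumors and 6.04, 5.57 and 5.57 in vehicle tumors, and gave 0.60 ± 0.25 (adjusted p = 0.132, limma). Rplp1 was near the top of the array in all tumors, between 15.77 and 16.05, and gave 0.07 ± 0.19 (adjusted p = 0.817). Rpsa, a small subunit protein also known as the laminin receptor precursor, was below detection on both of its probes, with a lowest detection p of 0.1004.

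**Figure D3:**
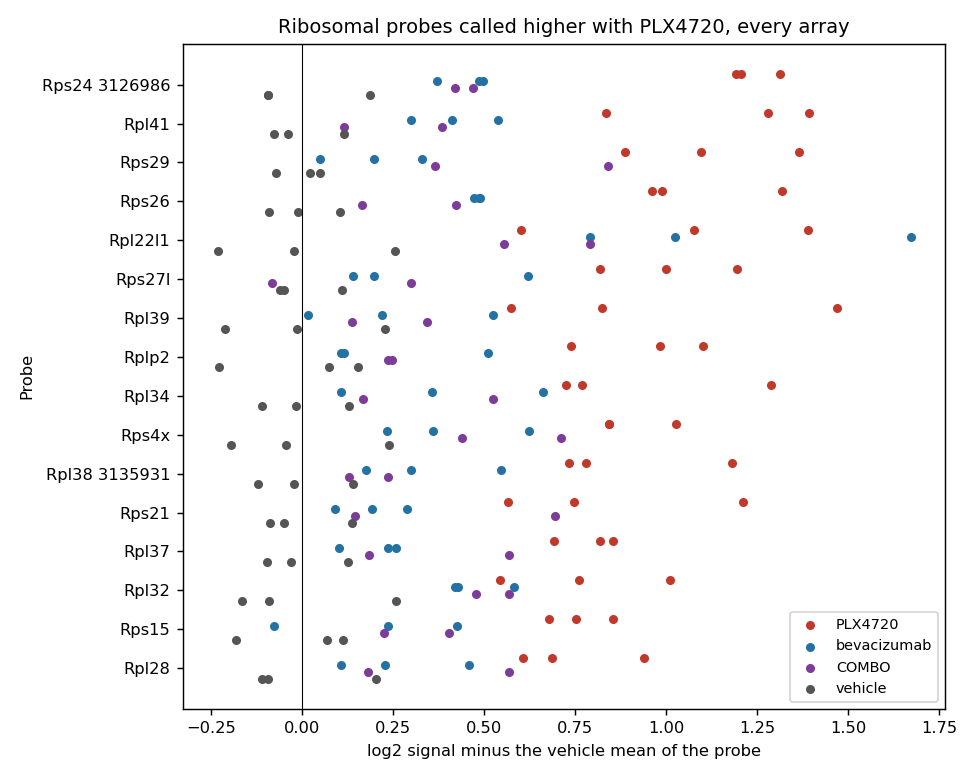
The 16 ribosomal probes called higher with PLX4720, one row each: the horizontal axis gives log2 signal minus the vehicle mean of that probe, and each point is 1 array (3 PLX4720, 3 bevacizumab, 2 COMBO, 3 vehicle). The PLX4720 arrays lie right of all vehicle arrays in all 16 rows, and right of both COMBO arrays in 13; the rows were chosen for being high with PLX4720.

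The 16 called probes covered 7 large subunit proteins, 6 small subunit proteins, 1 stalk protein and 2 paralogs. Their log2 fold changes with PLX4720 ran from 0.74 to 1.24, or 1.67-fold to 2.36-fold. The same probes had log2 fold changes of 0.19 to 1.16 with bevacizumab (median 0.33) and 0.11 to 0.67 with COMBO (median 0.36), and these comparisons share the vehicle arrays. The largest value in each belonged to Rpl22l1, which was detected on 0 vehicle arrays. Over all probes of each role, the median log2 fold change with PLX4720 was 0.44 for 35 large subunit probes and 0.47 for 27 small subunit probes.

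The change also differed with brightness. Of the 44 ribosomal probes with a mean log2 signal between 8 and 14, 13 were called higher and the median log2 fold change was 0.59, while of all 3141 probes in that range 162 were called higher and the median was 0.12. Of the 19 under 8, 1 was called higher (5.26%, against 4.63% of all probes in that range) and the median was 0.34. Of the 41 probes on the array above 14, 10 were ribosomal. Rpl41 and Rps29 were called among these 10, whose median log2 fold change was 0.05, while 5 of all 41 were called higher. Among them Rps12 (ILMN_2956159) read between 16.05 and 16.13 on every array and was never below the fourth brightest of all probes. The raw signal of this probe ran from 61189.8 to 72809.3, beside a highest raw signal of 67815.9 to 73172.6 on the arrays. It was thus near the top before normalization, and saturation of the scan was not tested. Quantile normalization also gives a probe at the top of every array nearly the same value, so changes there can be compressed. Rps14, between 15.90 and 16.02, gave -0.03 ± 0.19. With each array scaled to its median in place of quantiles, that probe of Rps12 gave -0.75 and Rps14 gave -0.76, both called lower. The raw signal of Rps14 was also high, at 57762.1 to 71869.1, so these falls carry the same limit.

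The paralogs had their own patterns. Rps27l, a paralog of Rps27 that p53 induces, read 12.38, 12.20 and 12.57 in PLX4720 tumors, 12.00, 11.52 and 11.58 in bevacizumab tumors, 11.30 and 11.68 in COMBO tumors, and 11.49, 11.32 and 11.33 in vehicle tumors. Its log2 fold change with PLX4720 was 1.00 ± 0.22 (adjusted p = 0.0182, limma), and it was called under all 5 other scalings. Rpl22l1, a paralog of Rpl22, was dim: it was detected on all PLX4720 and bevacizumab arrays, on 1 COMBO array and on 0 vehicle arrays. It therefore entered the test through the treated groups alone. It read 5.66, 6.14 and 6.45 with PLX4720, 5.85, 6.08 and 6.73 with bevacizumab, 5.85 and 5.61 with COMBO, and 5.04, 5.31 and 4.83 with vehicle. Against the lowest detected signal of the vehicle arrays, it was at least 1.14-fold higher with PLX4720. The adjusted p of 0.0411 (limma) belongs to the full difference in signal and not to this bound. Rpl22l1 was called under 1 of the 5 other scalings and in 3 of the 11 fits that left out 1 array. Such a bound sets the mean of the brighter group against the lowest signal that counts as detected on each array of the dimmer group.

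Rpl3l, the paralog of Rpl3 that striated muscle uses, was detected on 3 arrays only. It read 11.28, 5.03 and 5.34 in PLX4720 tumors, 4.89, 6.74 and 4.94 in bevacizumab tumors, 8.02 and 5.21 in COMBO tumors, and 4.83, 4.98 and 5.0 in vehicle tumors. The 3 arrays with signal were the arrays with the highest muscle list in each treated group. The log2 fold change with PLX4720 was 2.28 ± 1.32 (adjusted p = 0.261, limma), and it rests on PLX4720 replicate 1, since the other PLX4720 arrays were below detection. Rpl3 itself, a core large subunit protein, read between 12.82 and 13.65 with PLX4720, against 12.44 to 12.81 with vehicle. Its PLX4720 arrays lay above all vehicle arrays, but it was not called (0.63 ± 0.27, adjusted p = 0.142, limma).

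**Figure D4:**
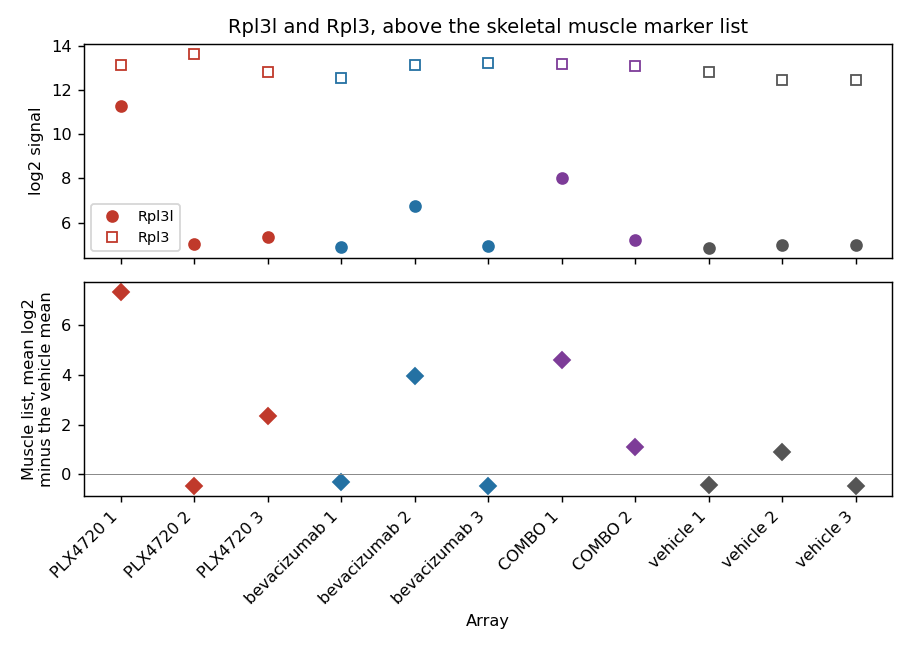
Upper panel, log2 signal of Rpl3l (filled circles) and Rpl3 (open squares) on each array; lower panel, mean of 16 skeletal muscle genes as log2 signal minus the vehicle mean. Rpl3l reads 11.28, 6.74 and 8.02 on the arrays where the muscle list stands at 7.35, 3.95 and 4.60.

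Other paralogs did not pass the test. Rpl36al, the autosomal paralog of X-linked Rpl36a, read 11.82 and 11.79 in COMBO tumors and 11.35, 11.05 and 11.12 in vehicle tumors (0.63 ± 0.23, adjusted p = 0.266, limma). Rpl36a had a lower mean with COMBO, but its arrays overlapped those of vehicle. It read 10.65 and 10.85 in COMBO tumors and between 10.84 and 11.29 in vehicle tumors (-0.30 ± 0.26, adjusted p = 0.691, limma). A difference between these paralogs was not tested. Rps4l was detected on 2 arrays. Rpl39l was below detection, and Rpl10l was not analysed here. Rps19bp1, which the rule takes in by its name, encodes a protein that binds Rps19 and is no subunit; it was detected on 1 array, PLX4720 replicate 3, at 6.46.

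Bevacizumab against vehicle gave 0 ribosomal calls in limma in either direction, and the share of all probes called was 0% higher and 0% lower. Before adjustment, at p under 0.05, the counts were 8 ribosomal probes above vehicle (3.03% of all probes) and 0 below (3.72%). The arrays of the groups did not overlap for 18 probes above vehicle (6.43% of all probes) and 1 below (7.06%). The median log2 fold change was 0.26, against 0.00 over all probes, and 62 of the 73 were higher in mean. The smallest p belonged to Rpl22l1 (1.16 ± 0.29, adjusted p = 0.57, limma), which alone passed the threshold of the methods, as did 0.259% of all probes. It was followed by Rpl31 (ILMN_3073486), at 0.64 ± 0.24 (adjusted p = 0.679), and by a dim probe of Rps24 (ILMN_2625060), at 0.65 ± 0.27 (adjusted p = 0.71). Rpl22l1 and this Rps24 probe were detected on 0 vehicle arrays, so they were tested only through treated groups. Both are among the 8 and the 18 probes counted above. Against the lowest detected signal of the vehicle arrays they were at least 1.26-fold and 1.09-fold higher with bevacizumab.

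COMBO against vehicle also gave 0 ribosomal calls, against 0.0617% of all probes higher and 0.185% lower. Before adjustment, at p under 0.05, 6 ribosomal probes were higher (6.89% of all probes) and 1 was lower (6.04%). Both COMBO arrays lay above all vehicle arrays for 31 probes (20.3% of all probes) and below for 4 (17.9%). Among the 31 were Rpl22l1, Rpl3l and a dim probe of Rps13 (ILMN_2482591). These were detected on 0 vehicle arrays and were tested only through treated groups. Among the 4 was Rps4l, detected on 0 arrays of either group. The median log2 fold change of the ribosomal probes was 0.26, against 0.02 over all probes. After Rpl36al the smallest p belonged to Rps9, at 0.66 ± 0.27 on its bright probe (adjusted p = 0.319, limma) and 0.65 ± 0.29 on its dimmer probe. The dim probe of Rpl7l1 (ILMN_2661407) had the next, at -0.96 ± 0.39 (adjusted p = 0.321). Rps9 read 13.08 and 13.31 in COMBO tumors and 12.80, 12.54 and 12.27 in vehicle tumors. The fewer COMBO arrays make its SE larger than those of the other groups.

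COMBO was then set against PLX4720, to see what the antibody added. No ribosomal probe was lower at an adjusted p under 0.05 (0% of all probes), and 8 were lower at an unadjusted p under 0.05 (7.3% of all probes). Both COMBO arrays lay below all PLX4720 arrays for 16 of the 73 (21.9%), against 17.4% of all probes. COMBO means were below PLX4720 means for 51 of the 73 probes, with a median difference of -0.25 log2 units, against -0.07 over all probes. Rpl41 differed by -0.92 ± 0.25 (adjusted p = 0.157, limma), Rpl36a by -0.97 ± 0.26 (adjusted p = 0.157), Rps24 by -0.79 ± 0.22 (adjusted p = 0.16) and Rps27l by -0.90 ± 0.25 (adjusted p = 0.165). Rpl41, Rps24 and Rps27l had been called higher with PLX4720, and that choice favors lower COMBO values here.

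The test of the PLX4720 effect with bevacizumab minus that without it also gave 0 ribosomal calls on the lower side (0% of all probes). At an unadjusted p under 0.05, 18 ribosomal probes were lower (6.36% of all probes) and 0 were higher (7.1%). The 18 held Rpl22l1 and the dim Rps24 probe ILMN_2625060, both detected on 0 vehicle arrays. Rps24 on its brightest probe gave -1.24 ± 0.29 log2 units (adjusted p = 0.137, limma). Rps26 gave -1.28 ± 0.30 (adjusted p = 0.141), and neither was called. Both were named for their rise with PLX4720, which this contrast subtracts, so that choice favors negative values. In the F test over the 4 groups, 8 ribosomal probes (11%) passed an adjusted p of 0.1, near the 9.13% of all probes. They were Rps24, Rpl41, Rps26, Rps29, Rps27l, Rplp2, Rpl22l1 and Rpl38. The Rpl22l1 probe was in the test only through treated groups.

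Agreement between probes could be read in 13 genes with 30 detected probes, as 17 pairs of the brightest and a further probe. With PLX4720, 12 of the 17 pairs had the same direction, against 58.8% of all 5284 pairs. In the limma test of unequal change, 0 of the 17 were called, against 18.5% of all pairs, and 3 had an unadjusted p under 0.05, against 31.9%. The median size of the difference was 0.44 log2 units for ribosomal pairs and 0.50 for all pairs.

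The 3 probes of Rps24 all had higher means, at 1.24, 0.86 and 0.47, but the dimmest was detected on 2 arrays, both PLX4720, and so was tested only through the group where it was high. The probe with the middle value (ILMN_2625060) was detected on 0 vehicle arrays and was at least 1.25-fold higher with PLX4720. Its adjusted p of 0.0634 (limma) belongs to the full difference in signal and not to this bound. The 3 probes of Rpl31, a large subunit protein, gave 0.34, 0.49 and 0.52, and those of Rps9 gave 0.55 and 0.46. The widest gap was in Rpl7l1, a homolog of Rpl7: its brighter probe read 7.34, 7.66 and 6.88 with PLX4720 and 7.24, 6.67 and 7.30 with vehicle, and the other read 6.14, 5.18 and 6.46 with PLX4720 and 6.76, 7.32 and 6.82 with vehicle. The probes differed by -1.26 ± 0.52 in their response (adjusted p = 0.116, limma).

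Rps12 had the smallest p among the 17 pairs. Its top probe gave 0.03, and its second probe (ILMN_2542938), at 14.42, 14.82 and 14.11 with PLX4720 and 13.78, 13.55 and 13.63 with vehicle, gave 0.80 ± 0.25. That pair differed by 0.76 ± 0.28 (adjusted p = 0.0753). Rpl23 spread over 0.54, 0.36 and -0.42, and its brightest probe varied within PLX4720 between 13.09 and 15.82. In Rps3 and Rps2, PLX4720 replicate 1 stood apart on the dimmer probe, at 8.67 beside 11.37 and 11.37 for Rps3 and at 9.80 beside 12.00 and 11.45 for Rps2. Rpl27a gave 0.68, 0.23 and 0.21, with the largest value on its brightest probe. Rpl30 gave -0.32 and 0.34, and Rps13 gave 0.20 and, on its dim probe, -0.24, a probe detected on 4 arrays.

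**Figure D5:**
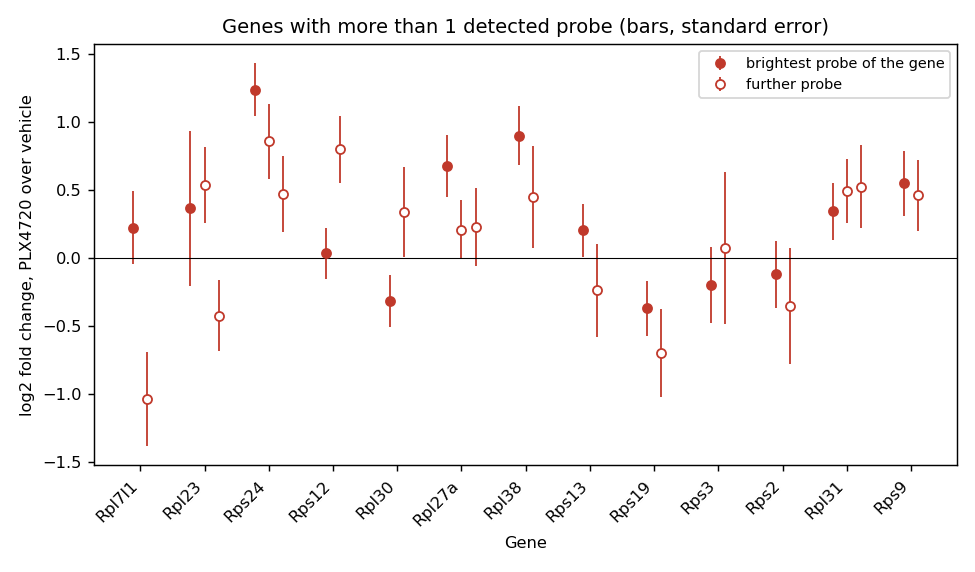
The log2 fold change of PLX4720 over vehicle (vertical axis) for each detected probe of the 13 genes with more than 1, with standard errors from limma; filled points are the brightest probe of a gene. Genes run from the widest range, Rpl7l1 (-1.04 and 0.22), to the narrowest, Rps9 (0.46 and 0.55).

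At the edge of detection, Rpl21 and Rps19bp1 passed on 1 array each, and the nearest probes outside were 1 of Rpl27a (lowest p 0.0577), Rps15a (0.0620) and 1 of Rpl28 (0.0694). Rpl27a and Rpl28 stayed in through other probes.

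Related lists were set beside the ribosome. Mitochondrial ribosomal proteins serve the separate ribosome of mitochondria. With PLX4720, 7 of their 108 probes were called higher (6.48%, near the 4.75% of all probes) and 0 lower. Their median log2 fold change was 0.39, and 91 of the 108 had higher means, beside 61 of the 73 ribosomal probes. PLX4720 arrays lay entirely above vehicle for 34.3% of them, against 18.9% of all probes and 46.6% of the ribosomal probes. Their medians were 0.19 with bevacizumab and 0.24 with COMBO, beside 0.26 in both for the ribosomal probes. Ribosome biogenesis factors had 5 of 50 higher (10%) and 1 lower (2%), against 4.75% and 6.74% of all probes, with a median of 0.36. The called probes of Ubtf and Pes1, and ILMN_2693976 of Ncl, read below the lowest detected signal of every vehicle array. They were therefore tested only through the other groups. The called probe of Bop1 lay below it on vehicle replicates 2 and 3. The factor called lower, Nop56 (-0.80), was brighter, at 10.12 to 10.71 in vehicle tumors. The nucleolar protein nucleolin (Ncl) was among the higher ones, with both of its probes called. The probe brighter in PLX4720 tumors read 7.41, 7.20 and 6.85 there and 5.38, 6.36 and 5.70 in vehicle tumors. Its log2 fold change was 1.34 (adjusted p = 0.0316, limma). On vehicle replicates 1 and 3 this probe also lay below the lowest detected signal.

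A list of other genes with TOP mRNAs held translation factors and also Hnrnpa1, an RNA-binding protein, Naca, which binds nascent chains, Tpt1 and Vim. Of their 27 probes, 1 was called higher with PLX4720, for Eef1d (0.91), and 11 were called lower, against 4.75% and 6.74% of all probes. All 3 probes of Eef2, which moves the ribosome along the mRNA, were lower, and the brightest read 6.60, 11.31 and 7.92 in PLX4720 tumors and 13.21, 14.05 and 13.14 in vehicle tumors (-4.86, adjusted p = 0.00683, limma). For Pabpc1, the poly(A)-binding protein, 2 of 3 probes were lower (-4.34 and -2.84) and the third gave -0.14 (adjusted p = 0.787). Probes of the same gene also differed in other members called lower: Naca gave -1.80 and -1.91 beside 0.60, Eif4b -2.48 beside 0.69, Hnrnpa1 -1.76 and -1.32 beside 0.13, and Eef1a1 -1.05 beside 0.37 and -0.01. PLX4720 replicate 1, the array with the most muscle signal, had the lowest value on each probe of Eef2 and on each of these Pabpc1 probes. COMBO replicate 1 and bevacizumab replicate 2, next in muscle signal, read 12.48 and 12.90 on the brightest Eef2 probe. A link with muscle signal was not tested. In the Myc and mTOR list, 1 of 27 probes was higher and 2 were lower.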

How the data were processed

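RNA of 11 A375 tumors was measured on MouseWG-6 v2.0 arrays. The authors deposited non-normalized signal intensity per probe (linear, from GenomeStudio 2011.01). With it the authors deposited a detection p-value per probe and array. The authors also deposited cubic spline normalized signal, used here as an alternative after log2. Slide and scan order are not given in the sources used here. Probe symbols are those of the platform table, which has 34885 probes with 1 symbol, 18 with several and 10378 with none.

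Signal was background-corrected and quantile-normalized with neqc (offset 16) of limma 3.58.1 in R 4.3.3, giving log2 values. Probes with 1 symbol and detection (p under 0.05) on 1 array or more were fitted in limma with 1 mean per group on all arrays (7 residual and 5.1 prior degrees of freedom). P-values were adjusted by Benjamini-Hochberg over all 16217 probes, and over 5284 pairs for probe agreement. The functions were tested on simulated data. The number of arrays limits precision, and p-values measure the spread between these tumors.

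The members and gene lists were chosen with earlier results of these data known. Named are, per treatment, up to 8 called probes with the largest rise and fall, or else the 3 smallest p. Also named are stalk proteins, a list of paralogs, anemia genes, the 8 genes of widest probe range, probes at the detection edge and non-subunits. Other called probes, and Rps2, Rps3, Rps14, Rpl36a, Rpl3 and genes of the related lists, were named after their values were seen. Alternatives changed scaling, background, filter, probe choice, groups, weights, moderation, muscle signal and single arrays.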

Additional observations from a re-analysis of the deposited data

How the results depend on the processing

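The PLX4720 count of 16 ribosomal probes (21.9% higher, against 4.75% of all probes) was 10 with median scaling (8 higher, or 11% against 9.34%, and 2 lower), 5 with housekeeping scaling (6.85% against 5.72%), 5 with only the groups compared (6.85% against 1.47%), 6 at the threshold of the methods (8.22% against 3.66%), 6 with the muscle covariate (8.22% against 1.18%) and 2 without the 3 arrays of most muscle signal (2.82% against 0.612%), where COMBO keeps 1 array that is assumed to vary like the others. It ran from 3 to 17 with 1 array left out, and from 11 to 23 under the other settings apart from the replicate block. With the replicate number as a block it was 9 (12.3% against 3.73%), and the F test count was 4. Same-numbered arrays deviated from their group means with correlations of -0.25 to 0.26, so that the numbers were not taken to pair tumors, and the block changed no other ribosomal count. The F test count of 8 was 5 with the cubic spline values, 16 without background correction, 5 with median scaling, 2 with housekeeping scaling, 2 with the muscle covariate, 0 without the 3 arrays, and 1 to 8 with 1 array left out. The bevacizumab count of 0 was 1 at the threshold of the methods. COMBO against PLX4720 had 1 call without background correction, and the difference between PLX4720 effects had 2. The count of 0 unequal probe pairs was 1 with the cubic spline values, 3 without background correction, 2 with median scaling, 2 with housekeeping scaling, 1 with cyclic loess, 1 with the stricter detection filter, 5 with no filter, and 0 to 1 with 1 array left out. The cause of these shifts was not tested. The top probe of Rps12, whose raw signal was near the highest of the arrays, went from 0.03 to -0.75 with median scaling. The median of all probes with PLX4720 was 0.14, and -0.09 with median or housekeeping scaling, while that of the ribosomal probes was 0.35 to 0.50 under the scalings.

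The cubic spline values, cyclic loess and both probe choices kept the PLX4720 count between 13 and 16. A member below detection in a group has only a bound there, and probes that head every array take nearly the same value under quantile normalization.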
